A study of Mus musculus with 6 samples.

Results

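The miRNAs miR-338 and miR-219 are best known from oligodendrocytes, the myelin-forming glia, and their levels were followed here in hippocampus in mice with a Dicer1 deletion induced in forebrain neurons. They were taken as every feature named mmu-miR-338, mmu-miR-3065, mmu-miR-219a, mmu-miR-219b or mmu-miR-219c in the count files, with all loci and both hairpin arms. This gave 12 of 2035 mature miRNA rows, among 109108 features in all. Rows on opposite strands of 1 place share their reads, so the 12 rows stand for 6 places in the genome, and for 5 miRNAs once the 2 loci of miR-219a-5p are joined.

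Small RNA was sequenced from the hippocampus of male C57BL/6 mice aged 3 months. Both groups carried Dicer1 flox/flox alleles and were given tamoxifen 3 weeks before the tissue was taken. The Dicer1-ifKO group also carried CaMKIIa-creERT2, a recombinase that tamoxifen switches on and whose promoter is active in excitatory neurons of the forebrain, and the group called WT did not. Each group had 3 libraries made from pools of 3 mice, so the errors and p-values below measure the spread between pools. That promoter is not known for activity in oligodendrocytes, in which the design leaves Dicer1 untargeted in both groups. The Dicer1 span held 37, 32 and 35 counts in Dicer1-ifKO replicates 1, 2 and 3, against 45, 33 and 47 in WT replicates 1, 2 and 3. These are fragments over the whole gene that do not resolve the floxed part, so they check no label.

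Dicer cuts a hairpin precursor into a duplex, and 1 strand of the duplex, from the 5p or the 3p arm, is usually kept in an Argonaute protein. The kept strand finds its targets mainly through the seed, bases 2 to 8 from its 5′ end. In oligodendrocyte precursors miR-219a-5p and miR-338-3p are known to repress genes that hold the cells in the precursor state, such as Sox6, Hes5 and Pdgfra, and so to favour differentiation and myelination. Both have also been studied in neurons, so neither is a marker of 1 cell type alone.

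The mature sequences show which strands are meant and why some rows cannot be told apart. They are from RefSeq (GRCm38.p6), which held 10 of the 12 rows, and are written 5′ to 3′ with the seed in capitals.
miR-338-3p: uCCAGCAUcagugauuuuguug
miR-3065-5p: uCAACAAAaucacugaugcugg
miR-338-5p: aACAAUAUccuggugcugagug
miR-219a-5p: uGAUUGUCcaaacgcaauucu
miR-219b-3p: aGAAUUGCguuuggacaaucagu
miR-219c-3p: cGAGAAUUgcguuuggacaauc
miR-219b-5p: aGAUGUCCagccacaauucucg
miR-219a-1-3p: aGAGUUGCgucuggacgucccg
No 2 of these share a seed, and 0 other mouse miRNAs among the RefSeq sequences carried the seed of miR-338-3p, miR-338-5p or miR-219a-5p. miR-219a-2-3p, at chr2:29845645-29845666 on the minus strand, lies opposite miR-219b-5p.

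The hairpins give the context of the arms, which are in capitals.
Mir338: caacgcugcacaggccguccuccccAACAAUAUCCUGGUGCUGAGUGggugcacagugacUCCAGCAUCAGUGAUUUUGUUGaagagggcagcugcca
Mir219a-2: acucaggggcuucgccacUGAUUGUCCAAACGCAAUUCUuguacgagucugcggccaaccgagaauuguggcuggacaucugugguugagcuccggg
Mir219a-1: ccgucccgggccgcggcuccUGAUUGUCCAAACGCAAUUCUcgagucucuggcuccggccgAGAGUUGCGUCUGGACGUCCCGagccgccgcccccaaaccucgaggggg
In Mir338 the first capitals are miR-338-5p and the second miR-338-3p. In Mir219a-2 the capitals are miR-219a-5p, and in Mir219a-1 they are miR-219a-5p and then miR-219a-1-3p. The Mir338 hairpin (chr11:120014765-120014862, minus strand, GRCm38) lies in an intron of Aatk, a kinase gene on the same strand, by GENCODE M21. Mir219a-2 (chr2:29845631-29845727, minus strand) overlaps no gene other than miRNA genes there, and the protein-coding gene nearest to it is Urm1, 629 bases away. Mir219a-1 (chr17:34024983-34025092, minus strand) overlaps part of an exon of the noncoding RNA Gm26940 and lies 303 bases from Ring1.

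The authors' counts did not separate the strands of these places. miR-338-3p and miR-3065-5p overlap in 21 bases, all complementary, and each row held 59074 counts over the 6 libraries. miR-219a-2-3p held 13132 counts and the opposite miR-219b-5p 13235, while miR-338-5p held 5179 and miR-3065-3p 5182. The totals were equal, at 413, for miR-219a-5p and miR-219b-3p on chromosome 2, at 168 for miR-219a-5p and miR-219c-3p on chromosome 17, and at 75 for miR-219a-1-3p and miR-219c-5p. Values are given below for the miR-338 and miR-219a rows, and each holds for its opposite-strand partner as well. The host span adds nothing independent: of 64301 counts in the Aatk span, 99.9% were those of the miR-338 places inside it, and 45 lay outside, with 5 to 13 in any library.

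miRNA rows held 2318205 to 2739366 counts in the Dicer1-ifKO libraries and 2724752 to 3179363 in the WT libraries. Before the results, 3 libraries need naming. WT replicate 1 had 0.939% of its summed counts in rRNA features and 0.308% in mitochondrial tRNA features, where the other 5 libraries had at most 0.567% and 0.183%. How far a miRNA row deviated from its mean went with its GC content in 2 libraries: over genes, which are no replicates, Spearman's rho was -0.47 in Dicer1-ifKO replicate 1 and 0.49 in WT replicate 2, over 485 rows. In the other 4 libraries rho lay between -0.055 and 0.13.

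miR-338-3p was the most abundant of these miRNAs and did not pass the test between the genotypes. Levels are in CPM, with library sizes from all features, scaled by TMM. The rows are 21 to 23 bases long, so row length hardly enters when miRNAs are set side by side. How evenly different sequences were captured was not tested, so orders of level here are orders of counts. The level of miR-338-3p (mmu-miR-338-3p in the files) was 266, 194 and 201 CPM in Dicer1-ifKO replicates 1, 2 and 3, against 175, 157 and 261 CPM in WT replicates 1, 2 and 3. The highest library of each genotype, Dicer1-ifKO replicate 1 and WT replicate 3, were nearly level, and the groups overlapped. Dicer1-ifKO averaged 220.5 ± 39.9 CPM and WT 198 ± 55.9 CPM (SD, n = 3 each). On the log2 scale the change of 0.16 ± 0.20 (SE) had a 95% interval of -0.29 to 0.61 (edgeR quasi-likelihood test, adjusted p = 0.96), that is, a ratio of 1.12 with bounds of 0.82 and 1.52. Among 1862 miRNAs with loci and strands joined it ranked 37th by mean level in Dicer1-ifKO and 43rd in WT. In bulk tissue, fewer cells of a type and less RNA per cell cannot be told apart.

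The other arm of the hairpin, miR-338-5p (mmu-miR-338-5p, with mmu-miR-3065-3p opposite), was even across the libraries. It stood at 19.3, 17.4 and 16.0 CPM in Dicer1-ifKO replicates 1, 2 and 3, against 19.4, 17.3 and 19.6 CPM in WT replicates 1, 2 and 3, so the groups overlapped. The log2 change was -0.09 ± 0.16 (SE), with a 95% interval of -0.43 to 0.24 (edgeR adjusted p = 0.99). Its highest library exceeded its lowest by a ratio of 1.22, and for miR-338-3p this ratio was 1.70.

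**Figure D1:**
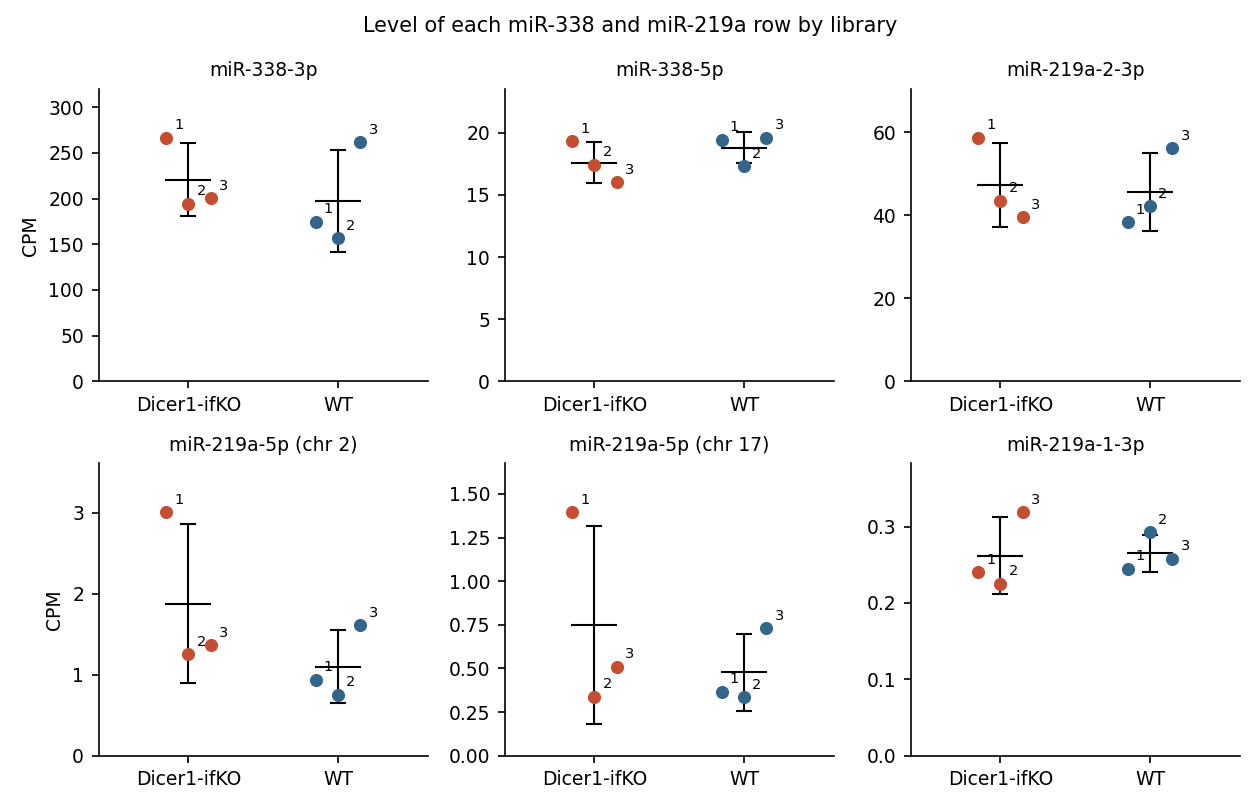
Level in CPM (y axis, from 0, a scale for each panel) of each miR-338 and miR-219a row in the Dicer1-ifKO (left) and WT (right) libraries; points are libraries with their replicate number, and bars the mean with SD (n = 3). The groups overlap in all 6 panels, and Dicer1-ifKO replicate 1 and WT replicate 3 are the highest library of their group for miR-338-3p, miR-219a-2-3p and both rows of miR-219a-5p.

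miR-219a-2-3p (mmu-miR-219a-2-3p, with mmu-miR-219b-5p opposite) was the most abundant product of the miR-219 hairpins. It stood at 58.7, 43.5 and 39.6 CPM in Dicer1-ifKO replicates 1, 2 and 3, against 38.4, 42.2 and 56.2 CPM in WT replicates 1, 2 and 3. As for miR-338-3p, Dicer1-ifKO replicate 1 and WT replicate 3 were high and the other 4 libraries close together. The log2 change was 0.05 ± 0.19 (SE), with a 95% interval of -0.37 to 0.47 (edgeR adjusted p = 0.99). Its bounds correspond to ratios of 0.78 and 1.39.

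miR-219a-5p (mmu-miR-219a-5p), the arm with the known role in oligodendrocyte differentiation, was scarce and varied most. Its row on chromosome 2 held 125, 67 and 64 counts in Dicer1-ifKO replicates 1, 2 and 3, against 46, 36 and 75 in WT replicates 1, 2 and 3. In CPM this is 3.01, 1.26 and 1.36 in Dicer1-ifKO and 0.94, 0.75 and 1.61 in WT, so that WT replicate 3 lay above the lower pair of Dicer1-ifKO libraries. The log2 change of 0.76 ± 0.43 (SE) was the largest of the 6 places, and its 95% interval of -0.26 to 1.78 was wide (edgeR adjusted p = 0.81). Without Dicer1-ifKO replicate 1 it was 0.25.

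The same mature sequence on chromosome 17 held 58, 18 and 24 counts in Dicer1-ifKO replicates 1, 2 and 3, against 18, 16 and 34 in WT replicates 1, 2 and 3. Its log2 change was 0.62 ± 0.62 (SE), with a 95% interval of -0.90 to 2.13 (edgeR adjusted p = 0.94), and it turned to -0.18 without Dicer1-ifKO replicate 1. The row on chromosome 2 held 2.16 to 3.72 times the counts of that on chromosome 17 in the Dicer1-ifKO libraries, and 2.21 to 2.56 times in the WT libraries. Over all libraries the chromosome 17 row held 40.7% of the counts of the other, whereas in 26 of 36 miRNAs with several loci and at least 100 counts the lowest locus held at least 90% of the highest. How the authors placed reads that match both loci is not given in the sources used here, so the split says nothing sure of the loci. With the 2 loci joined, miR-219a-5p had 183, 85 and 88 counts in Dicer1-ifKO replicates 1, 2 and 3, against 64, 52 and 109 in WT replicates 1, 2 and 3, and a log2 change of 0.72 ± 0.50 (SE, edgeR adjusted p = 0.90). The remaining arm, miR-219a-1-3p, had only 10 to 15 counts in the Dicer1-ifKO libraries and 12 to 14 in the WT libraries, and its log2 change of -0.02 ± 0.30 (SE) turned sign under 11 of 16 alternatives.

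In every library the order of levels was the same: miR-338-3p, miR-219a-2-3p, miR-338-5p, miR-219a-5p with its loci joined, and miR-219a-1-3p. Neighbours in this order did not overlap in CPM, taking the 6 libraries together. The rows of miR-219a-5p at its 2 loci did overlap, at 0.75 to 3.01 CPM on chromosome 2 and 0.33 to 1.397 CPM on chromosome 17.

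No place of miR-338 or miR-219 was called lower or higher. All 12 rows passed the filter on low counts. Of the 6 places 0 fell and 0 rose at an adjusted p of 0.05 in edgeR, and 0 passed at an unadjusted p of 0.05; DESeq2, which gave an adjusted p for 5 of them, called 0 and gave 1, the chromosome 2 row of miR-219a-5p, at an unadjusted p of 0.05. Among the 546 tested miRNA rows 6.59% were called lower and 0 higher and 33.2% passed at an unadjusted p of 0.05, and over all 6539 tested features 0.811% were called in either direction. With a background of 6.59%, 0 of 6 places is not a result about these miRNAs. Groups without overlap made up 33.9% of miRNA rows on the lower side and 2.01% on the higher side, and 0 of the 6 places on either. The median log2 change of the 6 places was 0.10, and 2 of them lay below 0. All tested miRNA rows had a median of -0.24, with 412 of 546 below 0, and all tested features a median of -0.05. The share of each miRNA in all miRNA counts, which needs no scaling over other RNA classes, averaged 0.425% ± 0.055 in Dicer1-ifKO and 0.324% ± 0.063 in WT for miR-338-3p (SD, n = 3 each). For miR-219a-2-3p it was 0.0910% ± 0.0146 in Dicer1-ifKO and 0.0749% ± 0.0075 in WT (SD, n = 3 each). Neither difference passed a two-sided exact permutation test (p = 0.2 for both, adjusted p = 0.3 over 9 measures), in which 3 libraries against 3 cannot give less than 0.1.

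How far these miRNAs stood from 0 depended on the scaling. When the miRNA rows alone set the TMM factors, the median of all miRNA rows moved by 0.24, to 0.0014, and that of the 6 places to 0.35, with 0 of them below 0. The log2 changes were then 0.41 ± 0.17 for miR-338-3p, 0.30 ± 0.16 for miR-219a-2-3p, 0.14 ± 0.16 for miR-338-5p and 1.00 ± 0.31 for the chromosome 2 row of miR-219a-5p (SE, edgeR adjusted p of 0.39 to 0.78). When only miRNA rows entered the fit, these 4 changes had SEs of 0.13, 0.12, 0.12 and 0.31, and the adjusted p was 0.070 for miR-338-3p and 0.067 for the chromosome 2 row of miR-219a-5p, while over the alternatives tried it ran from 0.070 to 1.00 and from 0.067 to 1.00 for these rows. In that fit 36 of 550 miRNA rows were called lower and 11 higher at an adjusted p of 0.05. At an unadjusted p of 0.05, 3 of the 6 places passed. The share of all miRNA rows at that p was not taken in this fit, so that count is not a result about these miRNAs.

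**Figure D2:**
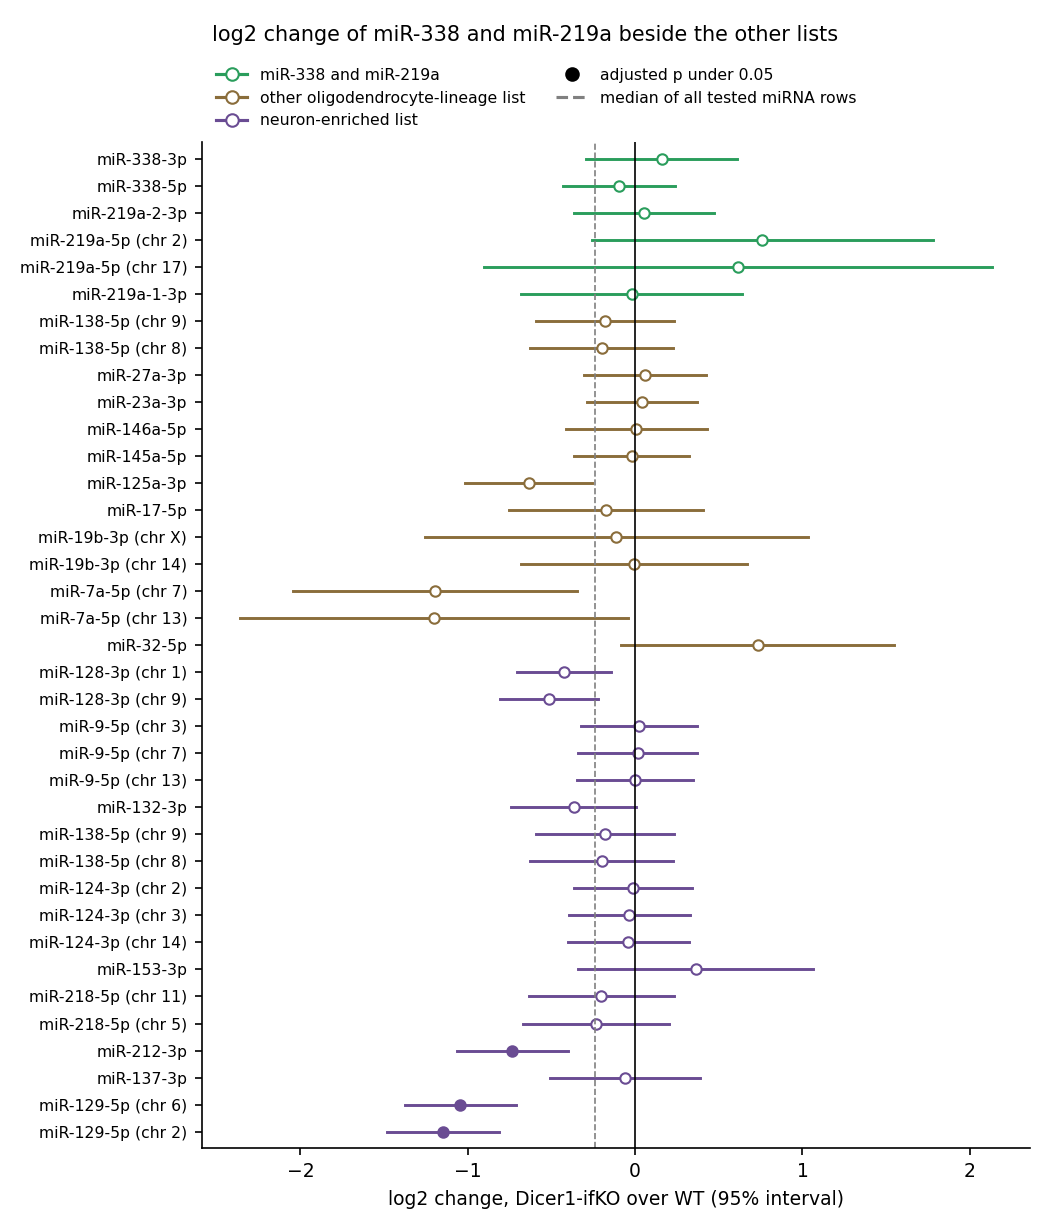
log2 change, Dicer1-ifKO over WT, with its 95% interval (x axis) for each miR-338 and miR-219a row and for the rows of the other lists; filled points passed edgeR's test at an adjusted p of 0.05, and the dashed line is the median of all tested miRNA rows, -0.24. The 6 miR-338 and miR-219a intervals all include 0, and the 3 filled points are miR-212-3p and the 2 loci of miR-129-5p.

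The libraries that carried the spread were the same for most of these miRNAs. On the log2 scale, miR-338-3p deviated from its own mean by 0.38, -0.08 and -0.03 in Dicer1-ifKO replicates 1, 2 and 3, and by -0.23, -0.39 and 0.35 in WT replicates 1, 2 and 3. miR-219a-2-3p deviated by 0.36, -0.07 and -0.21 in the Dicer1-ifKO libraries and by -0.25, -0.12 and 0.29 in the WT libraries, in the same replicate order. For miR-219a-5p the values were 1.23, -0.23 and 0.00 in Dicer1-ifKO and -0.52, -0.79 and 0.32 in WT. All 3 were thus highest in Dicer1-ifKO replicate 1 and WT replicate 3, and each was below its mean in WT replicates 1 and 2.

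Over the 546 tested miRNA rows these 2 libraries deviated together from the means of their own groups, with a correlation of 0.43 across rows. This was the highest of the 9 pairs of a Dicer1-ifKO and a WT library. The general miRNA level of the 2 libraries differed. Against the mean over 6 libraries, the median deviation of tested miRNA rows was 0.33 in WT replicate 3 and 0.0039 in Dicer1-ifKO replicate 1. In WT replicate 3 miR-338-3p thus stood near that median and in Dicer1-ifKO replicate 1 above it. Dicer1-ifKO replicate 1 was also the library in which miRNAs of low GC content were high, and miR-219a-5p has a GC content of 38.1%, miR-338-3p of 40.9% and miR-338-5p of 45.5%. miR-219b-5p, whose reads are those of the miR-219a-2-3p place, also high in that library, has a GC content of 50%. With the GC trend of the miRNA rows removed from each library, an alternative chosen after seeing the data, the log2 change was 0.04 ± 0.17 for miR-338-3p and 0.58 ± 0.34 for the chromosome 2 row of miR-219a-5p (SE, edgeR adjusted p = 0.99 and 0.82). The median of the 6 places was then 0.11, against 0.10 without the removal. Leaving out Dicer1-ifKO replicate 1 put miR-338-3p at -0.0036 and miR-219a-2-3p at -0.13, and leaving out WT replicate 3 put them at 0.46 and 0.28. The part of GC content in the differences between libraries was not tested further.

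**Figure D3:**
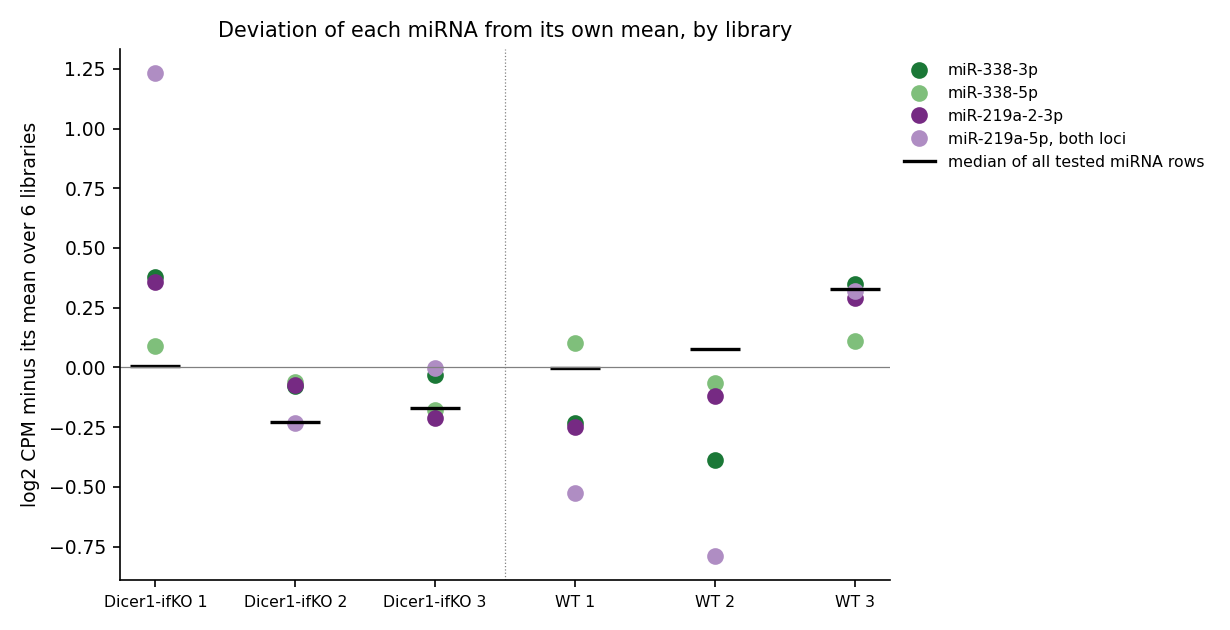
Deviation of each miRNA's log2 CPM from its mean over the 6 libraries (y axis) by library (x axis), with miR-219a-5p summed over both loci; black bars are the median deviation of all tested miRNA rows. miR-338-3p, miR-219a-2-3p and miR-219a-5p are high in Dicer1-ifKO replicate 1 and WT replicate 3, while miR-338-5p stays within 0.18 of its mean.

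The ratio between the arms of a hairpin is taken within a library and is free of any scaling. miR-338-3p exceeded miR-338-5p by a ratio of 13.8, 11.2 and 12.5 in Dicer1-ifKO replicates 1, 2 and 3, against 8.98, 9.05 and 13.3 in WT replicates 1, 2 and 3. By counts the 3p arm was therefore the major one in all 6 libraries, and the ratio in WT replicate 3 lay among those of the Dicer1-ifKO libraries. On the log2 scale the ratio averaged 3.64 ± 0.15 in Dicer1-ifKO and 3.36 ± 0.33 in WT (SD, n = 3 each). The difference of 0.28 did not pass a two-sided exact permutation test (p = 0.3, adjusted p = 0.39 over 9 measures). It was 0.46 without WT replicate 3 and 0.18 without WT replicate 1.

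For Mir219a-2 the major arm by counts was also the 3p one. miR-219a-2-3p exceeded miR-219a-5p, summed over both loci, by a ratio of 13.3, 27.3 and 21.2 in Dicer1-ifKO replicates 1, 2 and 3, against 29.4, 38.9 and 23.96 in WT replicates 1, 2 and 3. The groups overlapped through Dicer1-ifKO replicate 2 and WT replicate 3. The log2 ratio averaged 4.30 ± 0.52 in Dicer1-ifKO and 4.90 ± 0.35 in WT (SD, n = 3 each), and the difference of -0.61 did not pass (two-sided exact permutation p = 0.2, adjusted p = 0.3). Without Dicer1-ifKO replicate 1 the difference was -0.32. The denominator held 52 to 183 counts, and reads of the opposite-strand rows enter both arms.

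Relative to a list of neuronal miRNAs, miR-338-3p stood higher in each Dicer1-ifKO library than in any WT library. How many other miRNAs separate the groups in this ratio was not counted, so the separation is not shown to be particular to miR-338-3p. The neuron list held 10 names, at 18 places, of which miR-128-3p made up 37.9% of the counts and miR-9-5p 29.6%. The log2 ratio of miR-338-3p to the summed counts of the list was -3.75, -3.84 and -3.95 in Dicer1-ifKO replicates 1, 2 and 3, against -4.27, -4.44 and -4.05 in WT replicates 1, 2 and 3. The difference of 0.41 reached the smallest p that the 6 libraries can give (two-sided exact permutation p = 0.1, adjusted p = 0.3 over 9 measures), and it was 0.31 to 0.51 with each library left out in turn. The list itself held 6.55%, 5.51% and 6.22% of the miRNA counts in Dicer1-ifKO, against 6.16%, 5.73% and 6.43% in WT, so this difference is much the same as that in the share of miR-338-3p in all miRNA counts and is not shown to be particular to neuronal miRNAs. For miR-219a-2-3p the log2 ratios were -5.93, -6.00 and -6.29 in Dicer1-ifKO and -6.46, -6.34 and -6.27 in WT, in the same replicate order. Here Dicer1-ifKO replicate 3 lay below WT replicate 3, and the difference of 0.28 had an exact permutation p of 0.2 (adjusted p = 0.3).

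**Figure D4:**
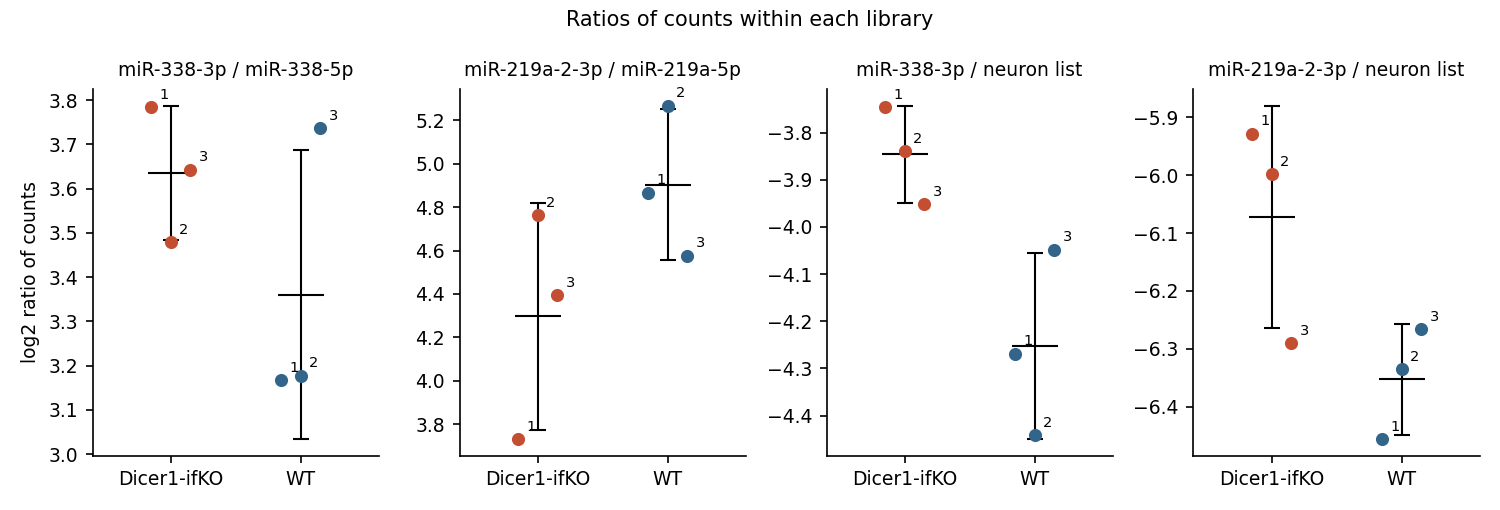
log2 ratio of counts within each library (y axes, which do not start at 0) for the arms of each hairpin and for miR-338-3p and miR-219a-2-3p over the summed neuron list, in Dicer1-ifKO (left) and WT (right); points are libraries with their replicate number, and bars the mean with SD (n = 3). Groups do not overlap in the panel of miR-338-3p over the neuron list and overlap in the other 3.

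In the neuron list 3 of 18 rows fell and 0 rose, where 6.59% of all tested miRNA rows fell, and its median log2 change was -0.19, against -0.24 for all tested miRNA rows. Those that fell were miR-129-5p, at 9.64 ± 0.87 CPM in Dicer1-ifKO and 19.9 ± 0.32 CPM in WT for its locus on chromosome 6 (SD, n = 3 each; edgeR adjusted p = 0.0077) and likewise on chromosome 2, and miR-212-3p, at 31.8 ± 2.93 CPM in Dicer1-ifKO and 52.8 ± 5.03 CPM in WT (edgeR adjusted p = 0.048). The abundant miR-128-3p, a regulator of neuronal excitability, had log2 changes of -0.43 and -0.52 at its 2 loci (edgeR adjusted p = 0.22 and 0.13). miR-9-5p, common to neural progenitors and neurons, had 0.00 to 0.02 at its 3 loci. With the loci of each miRNA joined, 2 of the 10 miRNAs of the list fell, where 34 of 484 joined miRNAs fell. Leaving out Dicer1-ifKO replicate 2 left 0 rows that fell, and leaving out replicate 3 of that genotype left 1.

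A list of other miRNAs that have been studied in the oligodendrocyte lineage held 10 names, at 13 places. By edgeR 0 of the 13 fell or rose, against 6.59% called among all tested miRNA rows, and DESeq2 called 0 of the 10 for which it gave an adjusted p. At an unadjusted p of 0.05 edgeR gave 3 of 13, all of them lower, against 33.2% of miRNA rows in either direction, so neither count stands apart from the background. The median log2 change was -0.11. Its most abundant members were miR-138-5p, also in the neuron list, with log2 changes of -0.18 and -0.20 at its 2 loci, miR-27a-3p with 0.06 and miR-23a-3p with 0.04. miR-23a-3p, known to repress lamin B1 in oligodendrocytes, stood at 31.9 ± 2.00 CPM in Dicer1-ifKO and 31.0 ± 2.75 CPM in WT (SD, n = 3 each). Most of these are made by other cells too.

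The miRNAs whose levels followed that of miR-338-3p most closely over the 6 libraries were miR-15a-5p, let-7f-5p, miR-22-5p, miR-143-3p and miR-21a-5p, with Pearson's r of log2 CPM from 0.97 to 0.995 and Spearman's rho from 0.89 to 1.00. They were the closest by Pearson's r among miRNAs that averaged 50 counts or more, and r over only 6 libraries that share their preparation describes these libraries alone. Without Dicer1-ifKO replicate 1 and WT replicate 3, the libraries farthest from the median, r lay between 0.86 and 0.97. As their choice by r among 336 miRNAs entails, they were high in Dicer1-ifKO replicate 1 and WT replicate 3, like miR-338-3p. For example, miR-15a-5p stood at 34.1, 26.6 and 26.3 CPM in Dicer1-ifKO replicates 1, 2 and 3, against 23.4, 22.4 and 33.0 CPM in WT replicates 1, 2 and 3. The log2 changes of these miRNAs ran from 0.09 to 0.15 and none was called (edgeR adjusted p of 0.96 to 0.99), which also follows closely from the choice. The 4 whose sequence RefSeq held had a GC content of 31.8% to 40.9%.

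Fragments of oligodendrocyte mRNAs did not single out the libraries in which miR-338-3p and miR-219a were high. They were summed over the spans of 12 genes, among them Mbp and Mobp, which encode myelin proteins, leaving out short RNA features inside them. The sum was 3.90, 3.62 and 4.36 CPM in Dicer1-ifKO replicates 1, 2 and 3, against 4.16, 4.49 and 4.24 CPM in WT replicates 1, 2 and 3, from 162 to 205 counts in the Dicer1-ifKO libraries and 197 to 215 in the WT libraries. Dicer1-ifKO replicate 1 and WT replicate 3 were thus neither the highest of the 6 nor the highest of their groups. Mbp stood at 1.77 ± 0.29 CPM in Dicer1-ifKO and 1.88 ± 0.27 CPM in WT (SD, n = 3 each; log2 -0.09, edgeR adjusted p = 0.99), and Opalin had 0 counts in 4 libraries. These are short fragments over exons and introns and not mRNA levels.

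Of the precursor genes that miR-219a-5p and miR-338-3p are known to repress, the span of Pdgfra held 81, 86 and 102 counts in Dicer1-ifKO replicates 1, 2 and 3, against 95, 104 and 90 in WT replicates 1, 2 and 3, and that of Sox6 8, 18 and 23 in Dicer1-ifKO, against 24, 28 and 9 in WT. Both overlapped between the groups (edgeR adjusted p = 0.99 and 0.97). A further precursor span, that of Cspg4, went the other way, without overlap. It stood at 0.337, 0.357 and 0.489 CPM in Dicer1-ifKO replicates 1, 2 and 3, against 0.245, 0.271 and 0.194 CPM in WT (log2 0.73, edgeR adjusted p = 0.50). Summed over these 3 precursor spans, fragments stood at 2.31 to 3.15 CPM in Dicer1-ifKO and 2.32 to 3.03 CPM in WT. Summed over 6 spans of neuronal genes, fragments stood at 7.66 to 10.02 CPM in Dicer1-ifKO and 7.64 to 9.65 CPM in WT, and over 4 spans of astrocyte genes at 3.64 to 4.72 CPM in Dicer1-ifKO and 3.33 to 4.16 CPM in WT. Over the 3 microglial spans, Cx3cr1, Csf1r and P2ry12, they stood at 0.426 to 0.526 CPM in Dicer1-ifKO and 0.163 to 0.271 CPM in WT, from only 20 to 28 counts in the Dicer1-ifKO libraries and 8 to 13 in the WT libraries. The groups did not overlap there. Among all 6539 tested features, groups were without overlap for 244 on the higher side and 606 on the lower side. Only 1 of the microglial spans, Cx3cr1, passed the filter on low counts, and it was not called (edgeR adjusted p = 0.65). The part of microglia in the miRNA values was not tested. Of 28 marker spans 16 passed the filter, and 0 of these fell or rose by edgeR, which called 0.811% of all tested features. DESeq2 called 0 of the 12 spans for which it gave an adjusted p. At an unadjusted p of 0.05, 1 span, that of Cspg4, was higher in edgeR, and 0 passed in DESeq2. Of all 6539 tested features, edgeR gave 423 lower and 88 higher at that p.

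**Figure D5:**
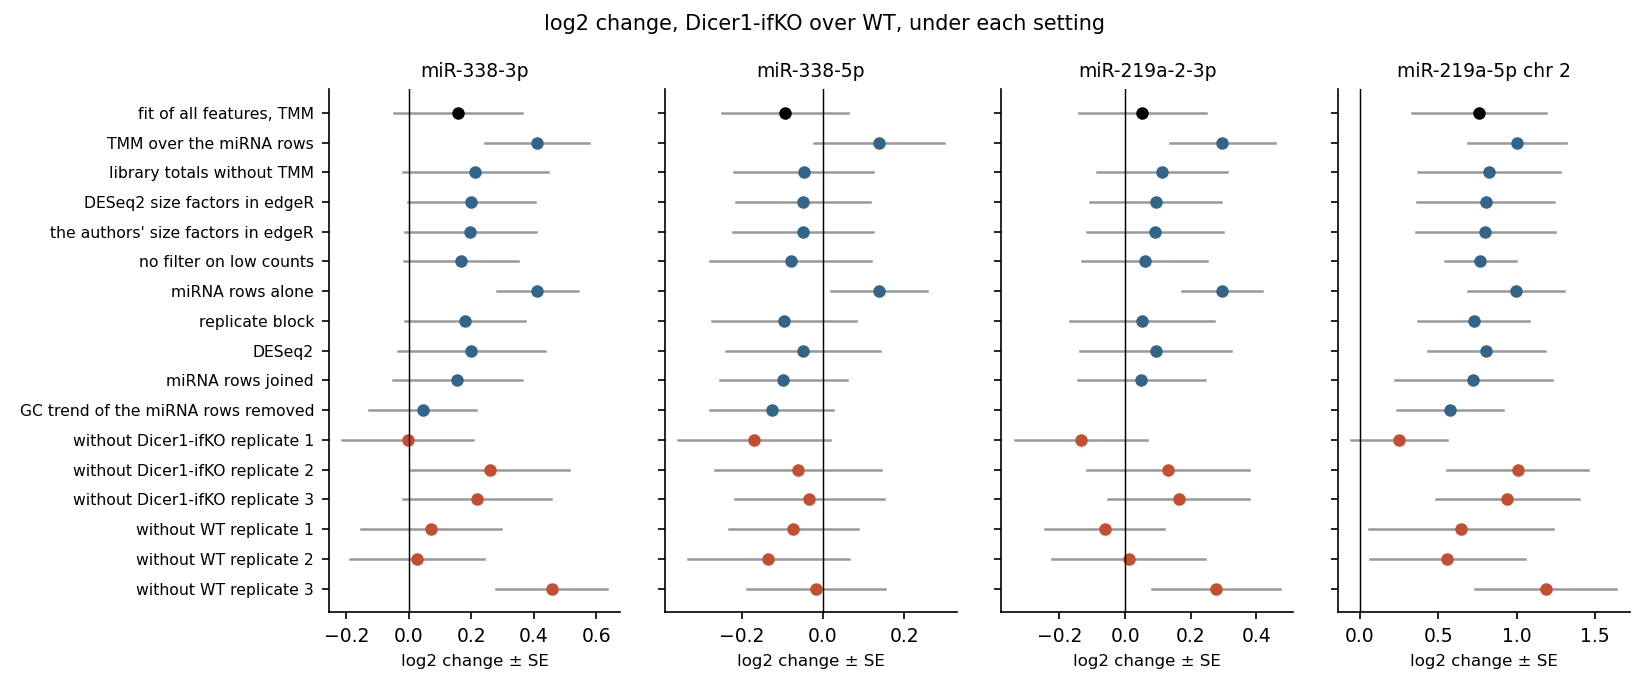
log2 change, Dicer1-ifKO over WT, with its SE (x axis, a scale for each panel) for 4 rows under each setting (y axis); the black point is the fit of all features with TMM, red points leave out 1 library and blue points are the other alternatives. miR-338-3p moves to -0.0036 without Dicer1-ifKO replicate 1 and to 0.46 without WT replicate 3, and miR-338-5p lies above 0 only where miRNA rows alone set the scaling.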

How the data were processed

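Per the labels, TruSeq small RNA libraries of hippocampal RNA were read on an Illumina HiSeq. Groups and replicate numbers are those of the sample titles. The design text gives 12 mice per genotype, while 3 pools of 3 make 9. The deposited raw column holds whole read counts per feature, unscaled. The authors' normalized column is a signal, the counts times 1 constant per library as the values show, used only to recover that constant. Tools listed in the submitters' processing notes, with no role, are BWA, SAMtools 0.1.18, DESeq2 and CASAVA 1.8.2, with the GRCm38 (mm10) build. Not stated in the sources used here are the counter, its strand setting and its treatment of reads with several matches. Overlapping features share reads, so summed counts (55101387 to 77428956 per library) are not read depth.

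Transcript rows with identical counts and the same gene were used once. edgeR 4.0.16 in R 4.3.3 was run on all features: filterByExpr (minimum count 10), TMM, robust glmQLFit and the two-sided glmQLFTest, Benjamini-Hochberg over 6539 features, threshold 0.05. SEs come from the F statistic. The fit was tested on simulated data. Ratios had 0.5 added to each count and were compared by exact permutation in SciPy 1.17.1. Rows sharing at least 10 bases were 1 place, counted by the row with more counts. Named were all member rows, the 5 most similar miRNAs, up to 3 abundant and all called members of each list, Aatk and Dicer1; the other spans named were chosen after their values were seen. DESeq2 1.42.0 was an alternative. Intervals cover the spread between pools. Members and lists were chosen with earlier results of these data known.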

Additional observations from a re-analysis of the deposited data

How the results depend on the processing

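None of the 6 places was called under any of the 16 alternatives, and the other oligodendrocyte-lineage miRNAs and the marker spans were not called under any that was run for them, where DESeq2 gave an adjusted p for 5 of the places, 10 of the 13 other miRNA rows and 12 of the 16 spans. Left out in turn, the libraries gave log2 changes of -0.0036 to 0.46 for miR-338-3p, -0.13 to 0.28 for miR-219a-2-3p, -0.17 to -0.018 for miR-338-5p, 0.25 to 1.18 and -0.18 to 1.10 for miR-219a-5p on chromosomes 2 and 17, and -0.19 to 0.11 for miR-219a-1-3p. With TMM factors taken from miRNA rows, and when only these rows entered the fit, miR-338-5p was at 0.14 in both, and miR-219a-1-3p at 0.22 in both. miR-219a-1-3p was also above 0 on library totals (0.030), with the size factors of DESeq2 (0.024) or the authors (0.023), in DESeq2 (0.023) and with the GC trend removed (0.13). It had 75 counts, and the cause was not tested. Same-numbered libraries (replicates 1, 2 and 3) deviated from their group means with correlations of -0.18, 0.075 and -0.16 over all tested features. Over the tested miRNA rows these were -0.046, 0.26 and -0.26. Correlations over genes cannot settle whether the replicate numbers pair the libraries. With the replicate block miR-338-3p was at 0.18, 0 places were called, and 0 neuron rows fell against 3 without the block, 1 with the miRNA TMM factors and 0 to 4 with a library left out. Of the 5 miRNAs most like miR-338-3p, 2 remained among the closest 5 with those factors and 2 to 4 with a library left out. The arm and neuron ratios kept their direction with the opposite-strand rows, with another pseudocount and with a library left out. The GC trend was not removed from these ratios, so its part in them was not tested. Another pseudocount could not be applied to shares, nor the miRNA rows alone to marker spans. With 10 to 58 counts per library, miR-219a-1-3p and the chromosome 17 row of miR-219a-5p are limited by depth.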
